A study of Mus musculus with 11 samples.

Results

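The 9 genes described here form the core of the programmed axon degeneration pathway: *Sarm1*, *Nmnat1*, *Nmnat2*, *Nmnat3*, *Nampt*, *Mycbp2*, *Fbxo45*, *Map3k12* and *Map3k13*. They were taken by gene symbol. The rule used no measured value, but the set was proposed with earlier results of these data known. All 9 were among the 36670 rows of the deposited table of mouse dorsal root ganglia (DRGs). For 8 of the 9 the mean level reached 0.5 FPKM (fragments scaled by gene length and library depth), the minimum for testing, which 15087 rows reached in all. *Nmnat3* lay below it. No member passed the test between any groups, and the sections that follow give their levels, how narrow the intervals around no change were, and what the other genes of the pathway did.

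Axon degeneration after injury or toxins runs through an enzyme of NAD metabolism. SARM1 is an NAD-cleaving enzyme that is held inactive while NAD is plentiful relative to its precursor NMN, and that destroys the axon's NAD once activated. NMNAT2, a short-lived enzyme carried down the axon from the cell body, converts NMN to NAD and so keeps SARM1 off. NMNAT1 and NMNAT3 carry out the same reaction in the nucleus and in mitochondria, and NAMPT supplies the NMN. MYCBP2 (also called PHR1) and its partner FBXO45 form a ubiquitin ligase that removes NMNAT2. DLK (*Map3k12*) and LZK (*Map3k13*) are stress kinases that act upstream of JNK, promote the loss of NMNAT2 and switch on injury genes in the neuron's nucleus. Sensory neurons of the DRG have long axons and are damaged by paclitaxel (PTX), a chemotherapy agent that binds microtubules and causes painful neuropathy.

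The study asked how GPR37L1, an orphan receptor of the satellite glial cells that wrap DRG neurons, acts in this pain model. RNA-Seq of whole DRGs covered 11 libraries in 4 groups. WT mice gave 3 control libraries and 3 libraries taken 4 weeks after PTX. Mice lacking *Gpr37l1* (KO) gave 3 control libraries and 2 taken at the same time after PTX. The deletion is constitutive, from a mutant line kept beside WT littermates, and the study used adult mice. The study calls its WT controls noninjured naive mice, and the file headers mark both control groups with V. The PTX dose of these mice was not given in the sources used here. Replicate 3 of each group was labelled female and the others male. The 2 KO libraries after PTX are called replicates 2 and 3 here, after the sample descriptions. Nothing in the labels ties a library to a single animal, so the p-values measure the spread between these libraries.

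Total estimated counts lay between 52735648 and 80348732 per library. *Gpr37l1* was at 14.6 to 35.7 FPKM in the 6 WT libraries and at 0.21 to 1.15 FPKM in the 5 KO libraries, so every library matched its genotype label. The summed FPKM of 14 sensory neuron markers ran from 6046 to 6863, with no marker at 0. WT control replicate 1 stood apart: it had the lowest total, its most abundant gene was CT010467 rather than *mt-Co1*, and 6 of the 9 members were at their lowest there. For comparison, 28.1% of all tested rows had their lowest FPKM in that library. The comparisons with the WT controls are also given without this library. Summed spinal cord markers were at 12.8 and 26.5 FPKM in the KO mice after PTX, against 5.48 to 12.2 FPKM in all other libraries, in which as many as 4 of the 10 markers were at 0. The part of such tissue in the members' values was not tested. In whole ganglia, fewer neurons and less RNA per neuron cannot be told apart.

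In the order of their mean FPKM in the WT controls, *Nmnat2* came highest, followed by *Fbxo45*, *Map3k12*, *Nampt*, *Mycbp2*, *Sarm1*, *Nmnat1*, *Map3k13* and *Nmnat3*. Mean levels were 22.8 FPKM for *Nmnat2*, 7.95 FPKM for *Sarm1* and 0.120 FPKM for *Nmnat3* (n = 3). *Nmnat2* lay above 92.9% of all detected genes and *Sarm1* above 81.4%. *Nmnat2* exceeded *Fbxo45*, and *Fbxo45* exceeded *Map3k12*, in 11 of 11 libraries. The neighbours *Map3k12* and *Nampt* kept their order in 9 of 11 libraries, *Mycbp2* and *Sarm1* in 10 of 11, and *Nmnat1* and *Map3k13* in 9 of 11. These 3 pairs of neighbours did not keep a fixed order beyond their spread. The other neighbours kept their order in all 11.

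This order is one of levels per length, and it was the same for the means of the 11 libraries when each gene was scaled to its longest annotated transcript. Under that scaling some neighbours lay close: *Fbxo45* and *Map3k12* at 20.3 and 19.2 FPKM, and *Nampt* and *Mycbp2* at 11.3 and 11.2 FPKM. The order within single libraries was not compared under it, so the counts of libraries above hold only for the FPKM as given by the authors. The ratio of count to FPKM showed that each gene had been scaled to the union of all its annotated exons: the implied length was within 2% of that union for 98.7% of 6430 genes at 5 FPKM or more. For *Map3k12* it was 8992 bases, while its longest annotated transcript has 5185 bases. Scaled to the longest transcript, the mean of the 11 libraries would move from 11.1 to 19.2 FPKM for *Map3k12*, from 0.129 to 0.298 FPKM for *Nmnat3*, from 23.6 to 29.4 FPKM for *Nmnat2* and from 7.53 to 8.72 FPKM for *Sarm1*. Of the exonic bases of *Map3k12*, 17.5% also lie in exons of *Pcbp2* on the opposite strand, a gene at 40.7 FPKM. The library kit keeps strand, but whether the counting used it was not given, so some *Map3k12* fragments may belong to *Pcbp2*. *Map3k13* shares 2.61% of its exonic bases with 1300002E11Rik on the same strand.

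The genes lie on different chromosomes of the mm10 (GRCm38) build, except for 1 pair. *Sarm1* is at chr11:78472330-78497458 on the minus strand and *Nmnat2* at chr1:152954993-153119261 on the plus strand. *Nmnat1* is at chr4:149467572-149485202 (minus), *Nmnat3* at chr9:98287435-98411391 (plus) and *Nampt* at chr12:32819545-32853349 (plus). *Mycbp2* is at chr14:103113411-103346800 (minus) and *Map3k12* at chr15:102497646-102517004 (minus). *Fbxo45* at chr16:32230112-32247158 (minus) and *Map3k13* at chr16:21794346-21933439 (plus) share a chromosome. *Nmnat2* is on the same chromosome as *Gpr37l1*, 17.8 Mb from it, so it is linked to the deleted locus.

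*Sarm1*, which encodes the NAD-cleaving executioner, was at 8.05, 8.61 and 7.18 FPKM in the WT controls and at 6.93, 7.09 and 7.45 FPKM in the WT mice after PTX. KO controls had 7.20, 7.08 and 7.81 FPKM, and KO mice after PTX had 7.95 and 7.53 FPKM. WT control replicates 1 and 2 were above every WT library after PTX, but replicate 3 lay among them, so the groups overlapped. With edgeR's quasi-likelihood test, the log2 fold change for PTX in WT was -0.15 (SE 0.086, 95% interval -0.34 to 0.04, adjusted p = 0.441), or -0.14 without WT control replicate 1. The libraries of all groups lay within a 1.24-fold range.

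*Nmnat2*, which encodes the axonal survival enzyme, was at 20.1, 23.5 and 24.9 FPKM in the WT controls and at 23.2, 23.6 and 25.2 FPKM in the WT mice after PTX. KO controls had 22.9, 23.1 and 23.7 FPKM, and KO mice after PTX had 23.9 and 25.3 FPKM. The low value was that of WT control replicate 1, and the other 10 libraries lay between 22.9 and 25.3 FPKM. The log2 fold change was 0.07 for PTX in WT (SE 0.069, 95% interval -0.08 to 0.22) and 0.03 for KO against WT controls (95% interval -0.12 to 0.18). For PTX in KO it was 0.06 (95% interval -0.11 to 0.23). Without WT control replicate 1, the values for PTX in WT and for KO against WT controls were 0.01 and -0.04. With all libraries, these intervals were the narrowest of the members after those of *Map3k12*.

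**Figure D1:**
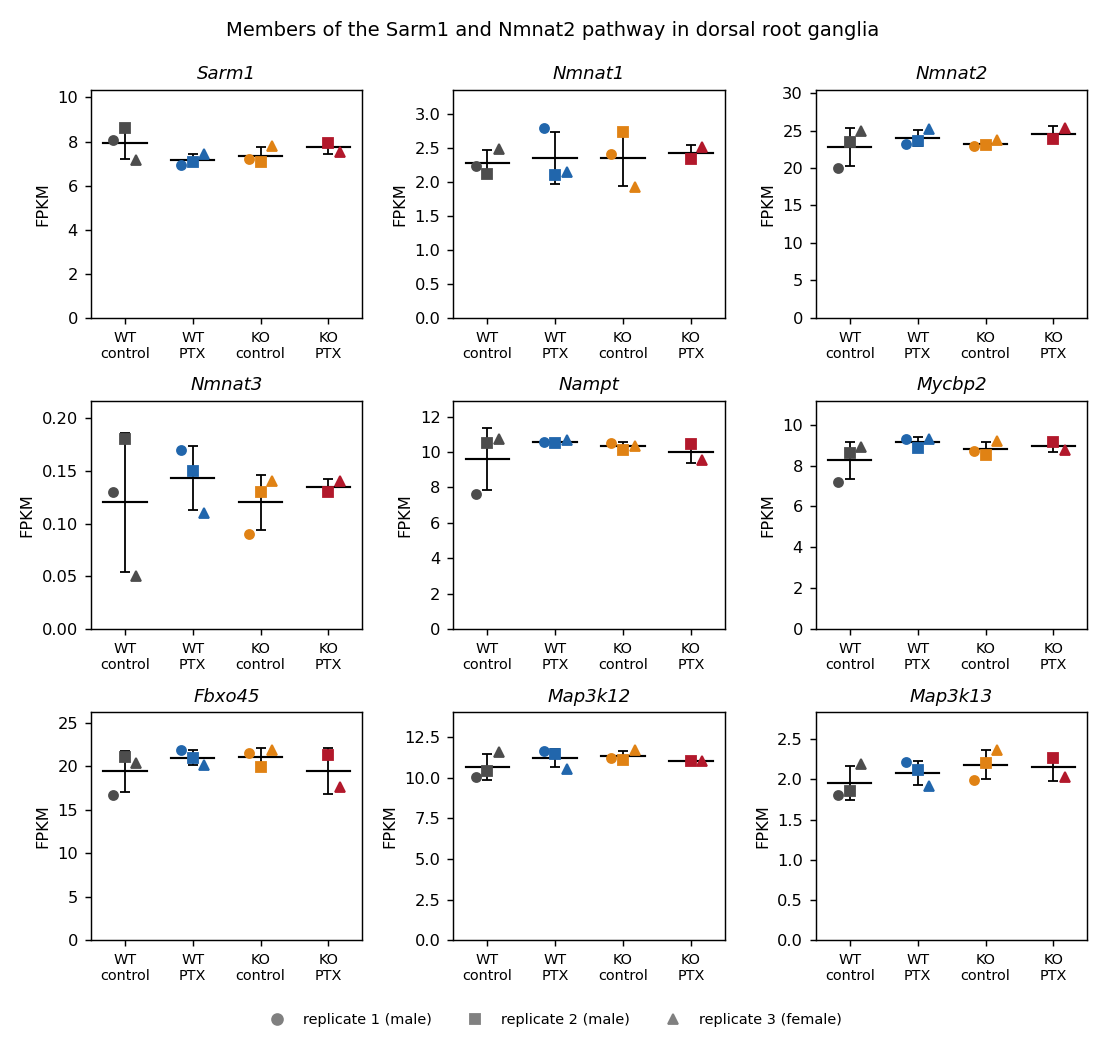
FPKM (y axis, from 0, a scale of its own in each panel) of the 9 members in each of the 11 libraries by group (x axis); points are libraries, shaped by replicate number, and black lines give the group mean with 1 SD. The groups overlap for most members, and WT control replicate 1 (circle) is the lowest of its group for *Nmnat2*, *Nampt*, *Mycbp2*, *Fbxo45*, *Map3k12* and *Map3k13*.

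The ratio of *Nmnat2* to *Sarm1* compares the protective enzyme's message with the executioner's within a library. It was 2.49, 2.73 and 3.47 in the WT controls and 3.35, 3.32 and 3.38 in the WT mice after PTX. KO controls had 3.18, 3.27 and 3.03, and in the KO mice after PTX 3.0025 and 3.36. The WT controls held both the lowest values and the highest one, and the WT mice after PTX lay closest together. The mean log2 ratio was 1.52 ± 0.25 (SD, n = 3) in the WT controls, 1.75 ± 0.013 (n = 3) in the WT mice after PTX, 1.66 ± 0.054 (n = 3) in the KO controls and 1.67 ± 0.12 (n = 2) in the KO mice after PTX. The difference for PTX in WT was 0.23 on the log2 scale (two-sided exact permutation test, p = 0.4, adjusted over 6 comparisons 0.8), where 3 against 3 libraries cannot go below p = 0.1. Between KO and WT controls it was 0.14 (exact permutation p = 0.4). With both genotypes pooled, 5 PTX libraries against 6 controls gave 0.12 (exact permutation p = 0.186, adjusted 0.8). These 3 differences were 0.12, 0.04 and 0.07 without WT control replicate 1. The permutation tests held no sex term. In WT, the male libraries were at 2.49 and 2.73 in the controls and at 3.35 and 3.32 after PTX. The female libraries were at 3.47 in the controls and 3.38 after PTX.

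**Figure D2:**
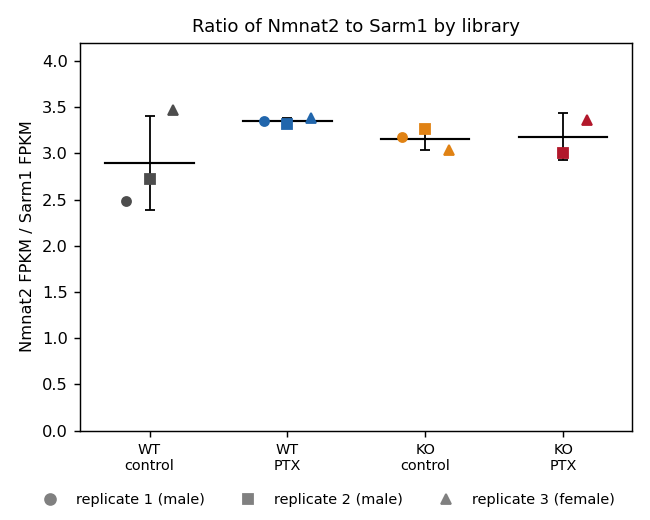
Ratio of *Nmnat2* FPKM to *Sarm1* FPKM (y axis, from 0) in each library by group (x axis); points are libraries shaped by replicate number and black lines the group mean with 1 SD. The ratio spans 2.49 to 3.47 in the WT controls and 3.32 to 3.38 in the WT mice after PTX.

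*Nmnat2* made up most of the NMNAT message. Of the summed FPKM of the 3 paralogs, *Nmnat2* held 88.7% to 92.0% (median 90.6%), *Nmnat1* 7.45% to 10.7% (median 8.97%) and *Nmnat3* 0.182% to 0.698% over the 11 libraries. These are shares of message, not of enzyme, and the 3 enzymes work in different compartments. *Nmnat1*, the nuclear form, was at 2.23, 2.11 and 2.48 FPKM in the WT controls and at 2.79, 2.10 and 2.15 FPKM in the WT mice after PTX. KO controls had 2.41, 2.73 and 1.92 FPKM, and KO mice after PTX had 2.34 and 2.51 FPKM. The groups overlapped throughout. With 390 to 733 counts per library it had the widest interval of the 8 tested members, -0.34 to 0.42 on the log2 scale for PTX in WT. *Nmnat3*, the mitochondrial form, was at 0.05 to 0.18 FPKM on 19 to 73 counts. Tested without the filter on low values, its log2 fold change for PTX in WT was 0.32, with an interval of -0.61 to 1.25 and an adjusted p of 0.874 by edgeR. At this depth the interval of *Nmnat3* held no change, a fall to 0.656-fold and a rise to 2.38-fold.

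*Nampt*, which encodes the enzyme that makes NMN from nicotinamide, was at 7.60, 10.5 and 10.7 FPKM in the WT controls and at 10.6, 10.5 and 10.7 FPKM in the WT mice after PTX. KO controls had 10.5, 10.1 and 10.3 FPKM, and KO mice after PTX had 10.5 and 9.56 FPKM. All but WT control replicate 1 lay within 9.56 to 10.7 FPKM. The log2 fold change for PTX in WT was 0.14 (SE 0.11, 95% interval -0.11 to 0.38). Without that library it was -0.0007, and for KO against WT controls the value went from 0.11 to -0.03.

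*Mycbp2*, the large ubiquitin ligase that targets NMNAT2, was at 7.22, 8.63 and 8.90 FPKM in the WT controls and at 9.29, 8.88 and 9.29 FPKM in the WT mice after PTX. The groups met only through WT control replicate 3, at 8.90 FPKM. KO controls had 8.70, 8.54 and 9.19 FPKM, and KO mice after PTX had 9.16 and 8.76 FPKM. Its log2 fold change for PTX in WT was 0.15 (SE 0.072, 95% interval -0.01 to 0.31) and its p, the smallest of any member in any comparison of the edgeR fit, was 0.0667, or 0.400 when adjusted over all tested genes. Without WT control replicate 1 the log2 fold change was 0.07 (SE 0.051, 95% interval -0.04 to 0.19, adjusted p = 0.670 by edgeR). *Fbxo45*, the F-box partner that brings substrates to MYCBP2, was at 16.7, 21.1 and 20.4 FPKM in the WT controls and at 21.8, 21.0 and 20.2 FPKM in the WT mice after PTX. KO controls had 21.5, 19.9 and 21.8 FPKM, and KO mice after PTX had 21.3 and 17.6 FPKM. Of all 11 libraries, the lowest 2 came from different groups, the WT controls and the KO mice after PTX. Its log2 fold change was 0.11 for PTX in WT (95% interval -0.10 to 0.32) and -0.11 for PTX in KO (95% interval -0.35 to 0.12). The value for PTX in WT was 0.01 without WT control replicate 1 (95% interval -0.15 to 0.17).

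*Map3k12*, which encodes the injury kinase DLK, was at 10.01, 10.42 and 11.55 FPKM in the WT controls and at 11.61, 11.44 and 10.56 FPKM in the WT mice after PTX. KO controls had 11.20, 11.07 and 11.68 FPKM, and both KO libraries after PTX had 11.01 FPKM. Its highest and lowest libraries differed 1.17-fold, the smallest range of the members. The SD of its log2(FPKM + 1) over the 11 libraries was 0.065, and of 500 genes of like level 7.0% had a smaller one. *Map3k13*, which encodes the related kinase LZK, was at 1.80, 1.86 and 2.19 FPKM in the WT controls, at 2.21, 2.12 and 1.92 FPKM in the WT mice after PTX, and at 1.99, 2.20 and 2.36 FPKM in the KO controls. Both KO libraries after PTX, at 2.27 and 2.03 FPKM, lay within the range of the other groups. The log2 fold change for PTX in WT was 0.07 for *Map3k12* (95% interval -0.07 to 0.21) and 0.09 for *Map3k13* (95% interval -0.14 to 0.33), or 0.04 and 0.05 without WT control replicate 1.

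Over the members as a group, 0 of 8 passed an adjusted p of 0.05 for PTX in WT by edgeR, where 0.00663% of all tested rows did. None reached an unadjusted p of 0.05 in that comparison, against 13.5% of all tested rows. DESeq2, which called 2.05% of rows, called 0 members, the smallest adjusted p being 0.363 for *Mycbp2*. The log2 fold changes ran from -0.15 for *Sarm1* to 0.15 for *Mycbp2*, and 7 of 8 were above 0. Without WT control replicate 1 they ran from -0.14 to 0.07, and 6 of 8 were above 0. The size of the change, without sign, had a median of 0.10 over the members and 0.14 over all tested rows. The intervals of all 8 members lay between 0.788-fold and 1.34-fold.

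KO against WT controls asked whether loss of the glial receptor alone came with other levels of the neuronal pathway. Here too 0 of 8 members passed, with 0.00663% of all rows called by edgeR and 0.278% by DESeq2, and 0 reached an unadjusted p of 0.05, against 7.54% of rows. The log2 fold changes ran from -0.11 for *Sarm1* to 0.16 for *Map3k13* (SE 0.11, 95% interval -0.07 to 0.40, adjusted p = 0.697). The sign was above 0 for 7 of 8. Leaving out WT control replicate 1, 5 of 8 were above 0 and the values ran from -0.10 to 0.12. This comparison and PTX in WT share the WT controls.

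The comparisons that involve PTX-treated KO mice rest on 2 KO libraries. For PTX in KO, 0 of 8 members passed (0.00663% of rows), and the log2 fold changes ran from -0.11 for *Fbxo45* to 0.07 for *Sarm1*. In KO against WT after PTX, 0 of 8 passed (0.0133% of rows), and they ran from -0.11 for *Fbxo45* to 0.12 for *Sarm1*. At an unadjusted p of 0.05 the counts were 0 and 0 members, against 4.32% and 3.55% of rows, and DESeq2 called 0 members in both, against 0.192% and 0.0663% of rows. The adjusted p was 0.993 or higher for every member in both comparisons by edgeR.

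The FPKM of *Nmnat2* was higher in both KO libraries after PTX than in the 3 KO control libraries, and that of *Map3k12* was lower. *Sarm1* was higher and *Nampt* lower in both KO libraries after PTX than in the 3 WT libraries after PTX. Such ranges without overlap were common with 2 against 3 libraries: 21.6% of all tested rows had them in the former comparison and 20.2% in the latter. For PTX in WT and for KO against WT controls, 0 members had ranges without overlap, against 14.2% and 9.28% of rows. The exact permutation tests of single members gave p = 0.2 at the lowest in these 4 comparisons, where 0.1 (3 against 3) or 0.2 (2 against 3) is the smallest possible.

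Pooling the genotypes gave the narrowest intervals. For PTX against control over both genotypes, the log2 fold changes ran from -0.04 for *Sarm1* to 0.08 for *Mycbp2*, with all intervals between 0.849-fold and 1.26-fold. The KO effect over both treatments ran from 0.00 for *Sarm1* to 0.10 for *Map3k13*, with all intervals between 0.853-fold and 1.27-fold. With all libraries, 6 of 8 members were above 0 for PTX and 8 of 8 for KO. The log2 fold changes without WT control replicate 1 ran from -0.05 to 0.05 for PTX and from -0.05 to 0.09 for KO, and 4 of 8 were above 0 in each. No member passed in either, where 0.0133% of rows did, and none reached an unadjusted p of 0.05, against 9.36% and 3.75% of rows. DESeq2 called 0 members in either, against 0.829% and 0.186% of rows. In the exact permutation test over 5 against 6 libraries the lowest p was 0.0606, for *Mycbp2* and PTX. No member had ranges without overlap, against 0.742% of rows for PTX and 0.325% for KO.

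The difference of the PTX effects, KO minus WT, was also within its error for each member. It was largest for *Sarm1*, at 0.23 on the log2 scale (SE 0.13, 95% interval -0.06 to 0.51, adjusted p = 0.724), with a log2 fold change for PTX of -0.15 in WT and 0.07 in KO. At the other end was *Fbxo45*, at -0.22 (SE 0.14, 95% interval -0.54 to 0.09). They were 0.21 and -0.12 without WT control replicate 1. Here 0 of 8 members passed, 0.00663% of rows did, and 0 reached an unadjusted p of 0.05, against 6.3% of rows. DESeq2 called 0 members, against 0.0795% of rows. These intervals were wider than those of the single comparisons, and a difference of up to 1.52-fold was within them for *Nmnat1*.

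**Figure D3:**
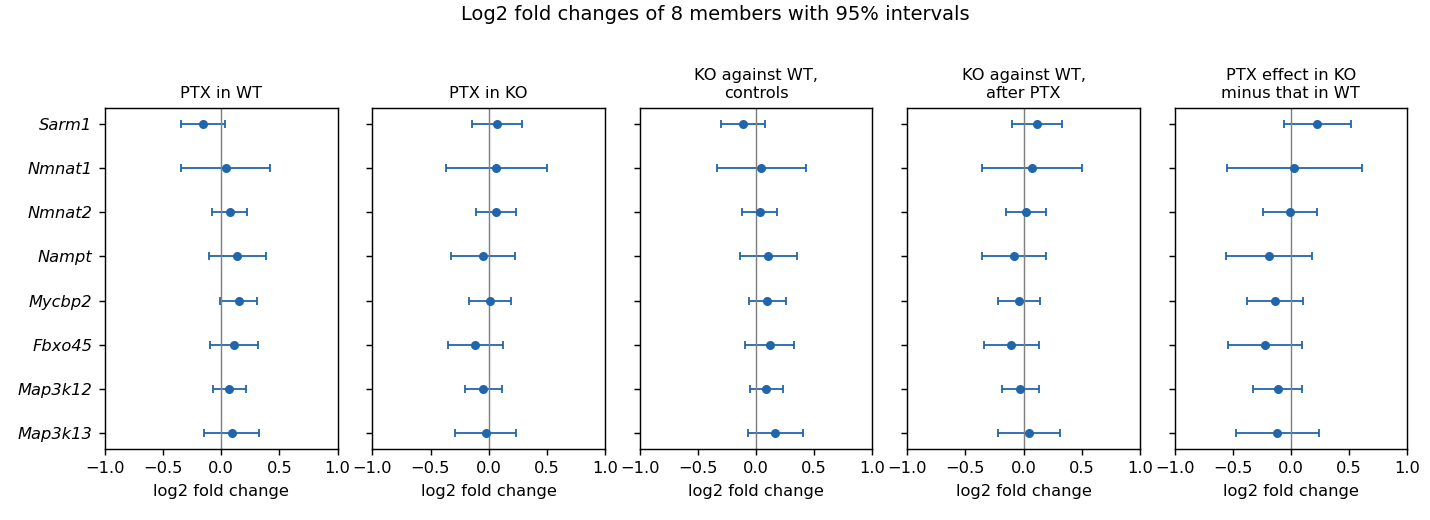
Log2 fold change (x axis) of the 8 tested members (y axis) in 5 comparisons, 1 panel each, with points for the edgeR estimate and bars for its 95% interval; the grey line marks no change. Every interval includes 0, and *Nmnat1* has the widest interval in each panel.

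The other genes of the pathway were read from lists by role, and no list held a gene that passed edgeR's test in any comparison. DESeq2 called 2 listed genes, both for PTX in WT and both described below among the injury genes. Among 6 tested genes of NAD synthesis (of 15 listed), those with the smallest p for PTX in WT were *Pnp*, a purine nucleoside phosphorylase that also acts on nicotinamide riboside, and *Afmid*, of the route from tryptophan. *Pnp* was at 5.24, 6.67 and 3.74 FPKM in the WT controls and at 4.26, 3.83 and 3.42 FPKM in the WT mice after PTX, so the groups overlapped. Its log2 fold change was -0.42 (SE 0.14, adjusted p = 0.284 by edgeR). *Afmid* differed by 0.68 (SE 0.28, adjusted p = 0.350). Between KO and WT controls the smallest p values were those of *Pnp*, at -0.36 (adjusted p = 0.657), and *Qprt*, at -0.54 (adjusted p = 0.671).

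Of the 14 tested NAD-using enzymes (of 16 listed), 0 reached an unadjusted p of 0.05 for PTX in WT, against 13.5% of all rows. The closest were the poly(ADP-ribose) polymerase *Tnks2*, at 0.20, and the mitochondrial deacylase *Sirt3*, at -0.22, with adjusted p of 0.402 and 0.407 by edgeR. Between KO and WT controls the closest were *Sirt3*, at -0.21 (adjusted p = 0.673), and the NAD kinase *Nadk*, at -0.16 (adjusted p = 0.674). Of the 4 tested genes of NMNAT2 turnover and palmitoylation (of 5 symbols listed, 1 of them a synonym), the palmitoyltransferase *Zdhhc17* had the smallest p in both comparisons, with log2 fold changes of 0.24 (95% interval -0.03 to 0.50) and 0.20 (95% interval -0.06 to 0.46). *Skp1a*, which encodes the ubiquitin ligase subunit SKP1, differed by -0.07 and -0.09.

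Among the 16 genes of the DLK, LZK and JNK cascade, all of them tested, 4 reached an unadjusted p of 0.05 for PTX in WT, 3 higher (6.59% of all rows) and 1 lower (6.87%), and the median log2 fold change was 0.05, against -0.01 over all rows. Without WT control replicate 1 the count was 2. *Spag9*, the JNK scaffold JIP4, was at 16.3, 20.5 and 20.9 FPKM in the WT controls and at 23.5, 22.9 and 23.4 FPKM in the WT mice after PTX. The ranges of *Spag9* did not overlap, which was so for 14.2% of all rows. Its log2 fold change was 0.27 (SE 0.087, adjusted p = 0.281 by edgeR) and 0.20 for KO against WT controls (adjusted p = 0.657). The scaffold *Mapk8ip1* differed by -0.16 for PTX in WT (adjusted p = 0.349) and the kinase *Map2k4* by 0.18 for KO against WT controls (adjusted p = 0.657). Among 16 genes of the execution phase of axon loss and apoptosis, 2 reached that p for PTX in WT, 1 higher and 1 lower, against 13.5% of all rows. *Xiap*, an inhibitor of caspases, differed by 0.35 (adjusted p = 0.276) and *Bax*, which opens the mitochondrial outer membrane, by -0.31 (adjusted p = 0.359). Between KO and WT controls they differed by 0.26 (adjusted p = 0.657) and -0.27 (adjusted p = 0.660).

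Genes that DLK is known to switch on after nerve injury formed a further list, and none of them passed the adjusted threshold by edgeR. Of these genes, *Jun* is also in the cascade list and *Bbc3* also in the execution list. The injury list was chosen with earlier results of these data known, and many of its genes share their high libraries. Its counts are therefore a description, not a test of independent genes. For PTX in WT, 13 of 13 had log2 fold changes below 0, with a median of -0.98 against -0.01 over all rows, and 9 of 13 reached an unadjusted p of 0.05, against 6.87% of all rows that did so in this direction. DESeq2 called 2 of them lower after PTX, *Chac1* (adjusted p = 0.00388) and *Gap43* (adjusted p = 0.0371), where it called 2.05% of all rows. For KO against WT controls, 12 of 13 were below 0 with a median of -0.72, and 6 of 13 reached the unadjusted p, against 3.58% of rows. That count was 1 without WT control replicate 2, 1 without KO control replicate 1 and 11 without WT control replicate 3, and for PTX in WT it stayed between 8 and 12 with any library left out. Without WT control replicate 1 the counts were 9 and 7. Both comparisons share the WT controls. For PTX in KO the median was -0.03 and 0 reached the unadjusted p, against 4.32% of rows.

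*Atf3*, a transcription factor that injured sensory neurons switch on, shows which libraries carried these values. It was at 34.8, 60.2 and 2.79 FPKM in the WT controls and at 5.09, 11.3 and 1.90 FPKM in the WT mice after PTX. KO controls had 8.22, 19.4 and 2.09 FPKM, and KO mice after PTX had 8.89 and 2.67 FPKM. The highest values were those of the 2 male WT controls, and the female WT control lay below every male library of the study. Its log2 fold change for PTX in WT was -2.02 (SE 0.52, 95% interval -3.18 to -0.87, adjusted p = 0.238 by edgeR).

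*Sprr1a*, a small proline-rich protein made during axon regeneration, was at 57.3, 118 and 0.23 FPKM in the WT controls and at 1.38, 14.9 and 0.21 FPKM in the WT mice after PTX. KO controls had 7.67, 27.6 and 0.09 FPKM, and KO mice after PTX had 9.32 and 0.24 FPKM. *Chac1*, a target of the integrated stress response, was at 5.85, 7.20 and 4.92 FPKM in the WT controls and at 2.39, 3.53 and 2.89 FPKM in the WT mice after PTX. The groups of *Chac1* did not overlap, which was so for 14.2% of all rows. Its log2 fold change was -1.03 for PTX in WT (SE 0.24, adjusted p = 0.210 by edgeR) and -0.81 for KO against WT controls (adjusted p = 0.657).

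Macrophage markers were also lower after PTX in WT, as called by DESeq2 for 6 of 10, where it called 2.05% of all rows in either direction. Their summed FPKM over 10 markers was 70.2 to 87.2 in the WT controls, 46.6 to 61.0 in the WT mice after PTX, 63.7 to 71.9 in the KO controls and 51.6 to 59.1 in the KO mice after PTX, with no marker at 0, and 9 of 10 reached an unadjusted p of 0.05 lower after PTX in WT, against 6.87% of all rows. By edgeR 0 of 10 passed the adjusted threshold, and without WT control replicate 1 the count at the unadjusted p was 8. For PTX in KO, 8 of 10 macrophage markers were below 0 with a median of -0.20, and 3 reached the unadjusted p, against 4.32% of all rows. Skeletal muscle markers summed to 18.2 to 651 FPKM in the WT controls and to 4.02 to 215 FPKM in the WT mice after PTX. The part of either in the injury genes' values was not tested. The kinases were low in the libraries with the highest *Atf3*. *Map3k12* and *Map3k13* were at their lowest in WT control replicate 1, a library that held the lowest FPKM of 28.1% of all tested rows. Both kinases were next lowest in WT control replicate 2, at 10.4 and 1.86 FPKM. Those WT controls had the highest *Atf3* of all libraries. This inverse order did not hold throughout. Next in *Atf3* came KO control replicate 2, at 19.4 FPKM. There the kinases were at 11.07 and 2.20 FPKM, near their means of 11.05 and 2.09 FPKM over all libraries. In replicate 3 of the WT mice after PTX *Atf3* was lowest, and the kinases were also low, at 10.56 and 1.92 FPKM. A link between the kinases and *Atf3* was not tested.

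**Figure D4:**
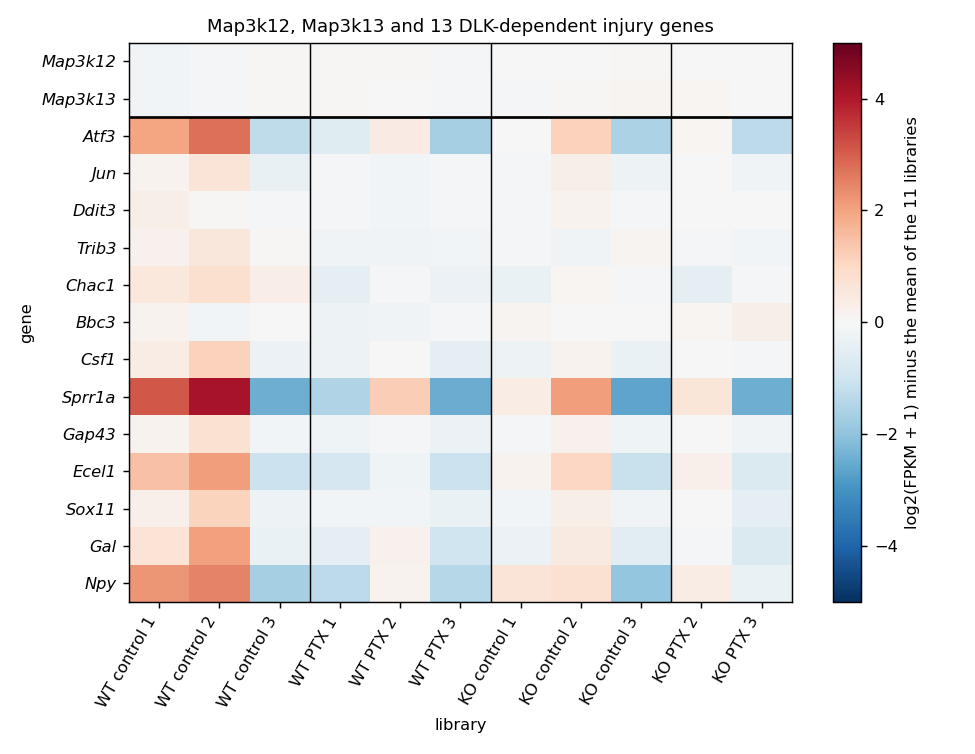
Log2(FPKM + 1) of *Map3k12*, *Map3k13* and 13 DLK-dependent injury genes (rows), each minus its mean over the 11 libraries, by library (columns, grouped by genotype and treatment); red is above and blue below that mean. Red cells gather in WT control replicates 1 and 2 and, more weakly, in KO control replicate 2, while both kinases stay near their mean in every library.

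Correlations between members over the 11 libraries are given as a description, since all share library depth and composition. *Nampt* and *Mycbp2* had a Pearson r of 0.912 over all 11 libraries and 0.403 without WT control replicate 1. *Nmnat2* and *Fbxo45* went from 0.345 to -0.668. Of the 36 pairs, those with an r beyond 0.5 in either direction both with and without that library were *Map3k12* with *Map3k13*, at 0.854 and 0.786, *Nampt* with *Fbxo45*, at 0.860 and 0.784, *Sarm1* with *Map3k12*, at -0.640 and -0.591, and *Sarm1* with *Nmnat1*, at -0.580 and -0.575. The genes with the pattern most like that of *Nmnat2* over the 11 libraries were 2610021A01Rik, *Actn1*, *Stk24*, *Zfp318* and *Kat7*, with r of 0.940 to 0.945, or 0.798 to 0.872 without that library. For *Sarm1* they were *Mdga1*, *Pgbd5*, *Gm20634*, *Srm* and *Wrnip1*, with r of 0.862 to 0.910, or 0.843 to 0.912 without it.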

How the data were processed

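Poly(A) RNA of mouse DRGs was sequenced from TruSeq stranded libraries. The authors deposited, per library, an FPKM value and a whole-number gene count, treated here as an estimated count. The submitters' processing notes name cutadapt, FastQC, HISAT2, StringTie and mm10; their roles and versions are not given in the sources used here. Group and sex were taken from the labels.

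Counts were tested with edgeR 4.0.16 (quasi-likelihood, TMM, R 4.3.3): 11 libraries in 1 fit with group and labelled sex, rows with mean FPKM of at least 0.5, 7 comparisons, Benjamini-Hochberg adjustment over 15087 rows, threshold 0.05. The fit was tested on simulated data. Alternatives were other size factors, DESeq2 1.42.0, other filters, no sex term, replicate numbers as a block, limma 3.58.1 on log2(FPKM + 1) or log2(FPKM + 0.1), only the groups compared, and each library left out. Single values were compared by two-sided exact permutation tests (scipy 1.17.1). Exon unions came from the GENCODE M21 annotation of the same build.

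The members and lists were chosen with earlier results of these data known. Named genes are the 9 members, *Gpr37l1*, the 2 genes of each list with the smallest p for PTX in WT and for KO against WT controls, the 5 genes most correlated with *Nmnat2* and with *Sarm1*, and markers that moved with a result. *Sprr1a* and *Gap43* were named after their values were seen, as were the overlapping genes. *Jun* and *Bbc3* are named because lists share them.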

Additional observations from a re-analysis of the deposited data

How the results depend on the processing

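No member was called in any of 151 fits (7 comparisons under the settings that could give them), and the smallest adjusted p of a member in any fit was 0.165, for *Sarm1* and PTX in WT without WT control replicate 3. As these values were uncalled, a direction was read only where the main value exceeded its SE. On that reading 0 of 536 values under the other alternatives and 2 of 616 with a library left out turned, and by sign alone 17 and 62 did. With each library left out, the log2 fold change of *Nampt* for PTX in WT ran from -0.0007 (without WT control replicate 1) to 0.22, and that of *Fbxo45* for PTX in KO from -0.26 to 0.0167. The log2 ratio of *Nmnat2* to *Sarm1* ran from -0.073 to 0.091 for PTX in KO, from -0.16 to 0.0049 for KO against WT after PTX, and from -0.0331 to 0.0629 for KO over both treatments. The cause was not tested.

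Over all tested rows, same-numbered libraries did not deviate together in every pair: the correlation of their deviations ran from -0.228 to 0.234. Of the injury genes, 7 of 13 ranked replicate 2 above 1 above 3 in each of the 3 complete groups. This was so for 0.717% of tested symbols and 0 of 8 members. That order was chosen after the data were seen, and the genes share their high libraries, so the count is a description. All 7 were also among the 8 injury genes that were lowest in the female library, replicate 3, of every group. With the number as a block, 9 and 7 of the 13 reached an unadjusted p of 0.05 for PTX in WT and KO against WT controls. Under the same block 0 members were called, and log2 fold changes for PTX in WT ran from -0.15 to 0.15. Blocked by the numbers in the titles, the range was the same, the injury gene counts were 9 and 4, and the calls over all rows for PTX in WT went from 1 to 0. Without the sex term the injury gene counts were 8 and 4.

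Calls over all rows depended on the tool: for the PTX effect DESeq2 made 309 in WT and 29 in KO, for the KO effect 42 in controls and 10 after PTX, 125 and 28 with PTX and KO pooled and 12 for the difference, against 1 or 2 each by edgeR. With only the groups compared the counts were 5, 4, 1 and 5 in the 4 unpooled comparisons. limma made 0 to 2. For PTX in WT the count was 0 without the sex term, 2 without the filter and 0 to 30 with a library left out, and for PTX pooled 1 without the sex term, 4 blocked by title number and 1 to 18 with a library left out. *Nmnat3* had the fewest counts of the members. The scaling by exon union moves levels between genes, not differences between groups.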

Other observations

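The labelled female library stood out for some genes of the pathway, a pattern chosen after the data were seen. *Nmnat2* was higher in it than in every male library of its own group in 4 of 4 groups, which was so for 1 of 8 tested members and for 4.18% of 15069 tested gene symbols. Of the 13 DLK-dependent injury genes, 8 were lower in the female library in 4 of 4 groups (*Atf3*, *Csf1*, *Sprr1a*, *Gap43*, *Ecel1*, *Sox11*, *Gal* and *Npy*), against 2.28% of tested symbols and 0 of 8 members. *Ecel1*, for example, was at 0.27, 0.26, 0.21 and 0.60 FPKM in the 4 female libraries and at 0.49 to 10.3 FPKM in the 7 male ones. Each group holds 1 female library, always the one numbered 3, so sex and whatever else that number marks cannot be told apart.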
